A study of Sus scrofa with 21 samples.

Results

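Phospholipases and the patatin-like phospholipase domain (PNPLA) lipases were examined in testis tissue of 21 boars. The set holds 10 named genes, PLA2G2A, PLA2G4A, PLA2G6, PLA2G7, PLA2G15, PNPLA2, PNPLA6, PNPLA7, PNPLA8 and PLCD4. Rows were found by gene symbol through identifier tables, and 9 of the 10 had a row among the 25880 genes counted. PLA2G15, a lysosomal phospholipase, was not matched to a row and was not analysed here. The set was in part selected on measured values. PNPLA7 was named for its difference between Landrace boars with high and low hyperactivity at day 0, and PLA2G2A is a named gene of the comparison of the change during storage. The members' values in these comparisons are therefore a description. Counts of members called there are printed beside the share of all genes called, and nothing is read from them.

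The boars were purebred artificial insemination boars, 13 Norwegian Landrace and 8 Duroc, and none had an experimental treatment or an engineered genotype. The age of each boar is not given in the labels, and testis was collected after slaughter, with 1 RNA library per boar. Groups came from the hyperactivity of the boars' sperm, the vigorous and asymmetric beating that mammalian sperm acquire before fertilisation. Hyperactivity was measured in fresh semen (day 0) and again once the semen had been stored as liquid for 96 h at 18 °C.

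Among Landrace boars, 4 with high hyperactivity at day 0 (L5, L6, L7 and L8) were compared with 4 with low hyperactivity (L1, L2, L3 and L4). For the change in hyperactivity between day 0 and the end of storage, 3 high boars (L7, L13 and L15) were compared with 4 low boars (L2, L9, L10 and L12). Boars L2 and L7 were in both comparisons, so these share samples. Among Duroc boars, 5 were labelled high (D1 to D5) and 3 labelled low (D6, D7 and D9). By boar name, the study's own table of the animals puts 7 of these 8 Duroc boars in the opposite group and 1 in the same group, so no direction was drawn from the Duroc labels. Libraries D2 and D3 held 84446404 and 125576407 counts on genes. This is more than the number of reads in that table for boars of these names, so the Duroc names may differ between the sources. The 13 Landrace boars were in the same group in both sources.

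Phospholipases cut membrane phospholipids. The A2 enzymes (PLA2) release the fatty acid at the middle position of the glycerol backbone and leave a lysophospholipid, and the C enzymes cut off the head group. Patatin-like lipases share a catalytic fold first known from a potato storage protein, and their substrates range from phospholipids and lysophospholipids to stored triglyceride. In sperm, phospholipid cleavage is part of membrane remodelling during capacitation and the acrosome reaction.

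Levels are given as CPM, the count of a gene scaled to its library size, with library sizes corrected by edgeR's trimmed mean of M-values method (TMM). The libraries held between 41358671 and 125576407 counts on genes. The members' raw counts per library ran from 44 for PNPLA2 to 22241 for PNPLA8, so counting error was largest for PNPLA2 and PLA2G2A. CPM takes no account of transcript length, and levels were not compared between genes. The 7 elongating spermatid markers matched, protamines among them, summed to between 6245 and 15110 CPM in the Landrace boars and between 10612 and 12686 CPM in the Duroc boars. Because whole tissue was sequenced, fewer cells of a type cannot be told apart from less RNA per cell.

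Coordinates on Sscrofa11.1 were read from RefSeq under each gene's symbol. PLA2G2A (ENSSSCG00000003494) spans 78327728 to 78339546 on chromosome 6. PLA2G7 (ENSSSCG00000001723) spans 41488152 to 41531383 on chromosome 7. PLA2G4A (ENSSSCG00000023351) spans 127853581 to 128164825 and PNPLA8 (ENSSSCG00000015446) 108271343 to 108320574, both on chromosome 9. PLA2G6 (ENSSSCG00000000110) spans 9713809 to 9777921 on chromosome 5. PNPLA2 (ENSSSCG00000012841) spans 513065 to 517962 and PNPLA6 (ENSSSCG00000013572) 71577165 to 71602756, both on chromosome 2. PNPLA7 (ENSSSCG00000034978) is on an unplaced scaffold. PLCD4 (ENSSSCG00000016192) has 2 entries under its symbol, so its position is not given. Whether its count is affected by this was not tested, and it is treated as uncertain.

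The members fell into genes that varied widely between boars and genes that varied little. Over the 21 boars the coefficient of variation was 66.1% for PLA2G2A, 55.9% for PNPLA2, 46.1% for PNPLA7, 44.6% for PNPLA6 and 44.5% for PLA2G6. It was 36.3% for PLA2G4A and between 23.6% and 25.7% for PNPLA8, PLCD4 and PLA2G7. The highest boar was 9.81 times the lowest for PLA2G2A and 2.08 times the lowest for PNPLA8.

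PLA2G6, PNPLA2, PNPLA6 and PNPLA7 were the members with lower levels and no overlap in the Landrace boars with high hyperactivity at day 0. In each of the 4 genes all high boars were below all low boars. The day 0 groups did not overlap in 31.4% of all genes tested. The mean level of PNPLA7 was 6.27 CPM in the high boars and 19.1 CPM in the low boars, and the differences of the other 3 genes were between 2.56-fold and 3.01-fold. These genes also separated boars within the Duroc breed, where they were lowest in D2 and D3.

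**Figure D1:**
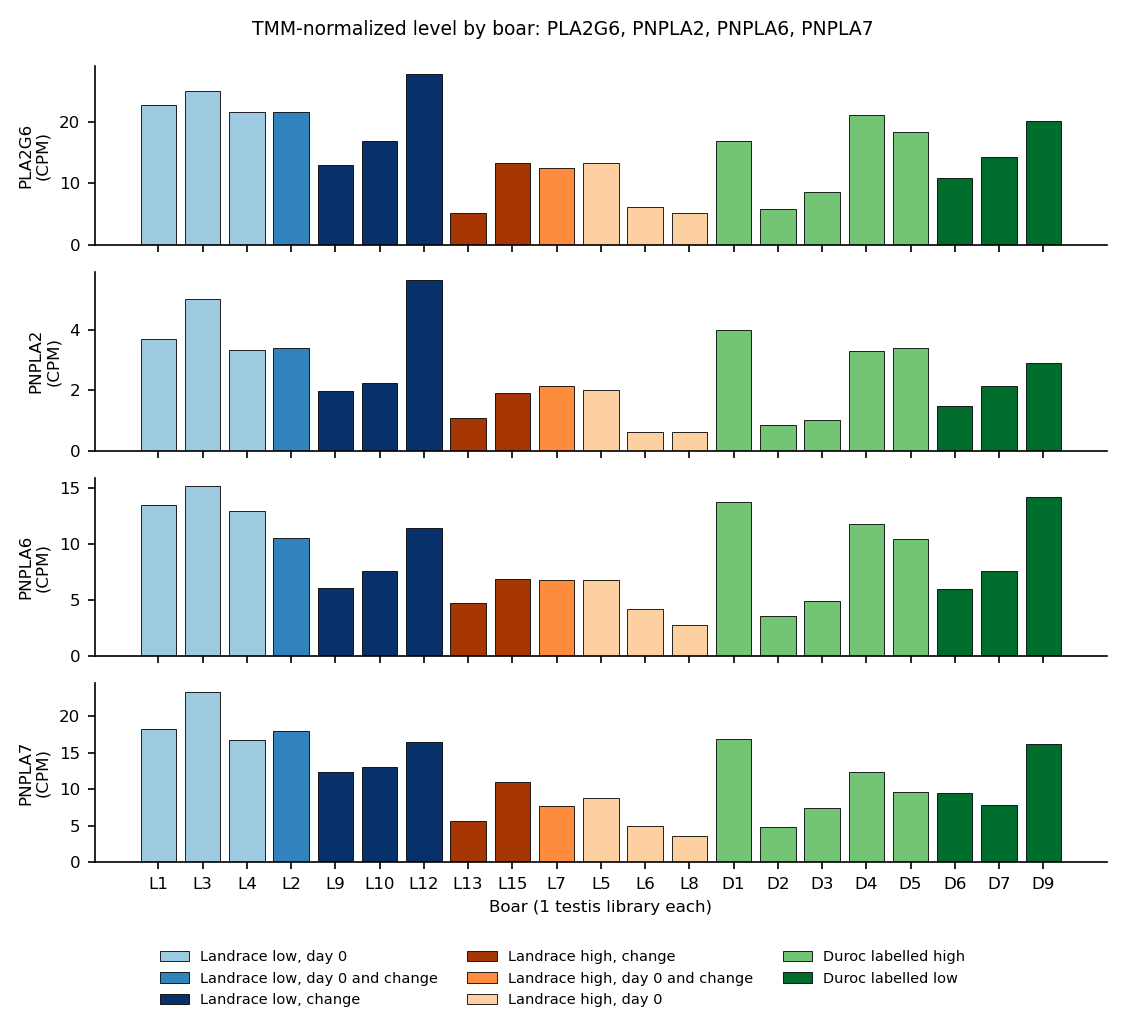
TMM-normalized level (CPM, linear axes from 0) of PLA2G6, PNPLA2, PNPLA6 and PNPLA7 in each of the 21 boars, with 1 bar per testis library coloured by group. The 4 boars with low hyperactivity at day 0 are above the 4 high boars in each gene, and L8, L6, L13, D2 and D3 are low in all 4 genes. The day 0 groups did not overlap in 31.4% of all genes tested.

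PNPLA7 encodes a lysophospholipase of the endoplasmic reticulum and is the closest relative of PNPLA6. Its level was 18.2, 17.9, 23.3 and 16.8 CPM in the low boars L1, L2, L3 and L4. In the high boars L5, L6, L7 and L8 it was 8.85, 4.96, 7.68 and 3.57 CPM. The groups were apart by more than the range of either, with L3 the highest and L8 the lowest of all 21 boars. The log2 fold change, high over low, was -1.67 ± 0.28 (SE, n = 4 and 4). This difference is what PNPLA7 was chosen by.

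PNPLA6, the neuropathy target esterase, breaks down phosphatidylcholine and lysophosphatidylcholine. Its level was 13.5, 10.6, 15.2 and 13 CPM in L1 to L4 and 6.8, 4.24, 6.82 and 2.84 CPM in L5 to L8. High over low, this was a log2 fold change of -1.40 ± 0.28 (SE). As for PNPLA7, the highest boar was L3 among the low boars and the lowest was L8 among the high boars.

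PLA2G6 is a calcium-independent phospholipase A2 of the patatin family, and male mice that lack it have impaired fertility. Its level was 22.7, 21.5, 24.9 and 21.6 CPM in L1 to L4, with an SD of 1.58 CPM. In L5 to L8 it was 13.3, 6.13, 12.4 and 5.18 CPM. The low boars were close together, whereas the high boars split into L5 and L7 above and L6 and L8 below. For PLA2G6 the log2 fold change came to -1.35 ± 0.29 (SE).

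PNPLA2, adipose triglyceride lipase, carries out the first step of the breakdown of stored triglyceride. Its level was 3.69, 3.41, 5.03 and 3.35 CPM in L1 to L4 and 2.01, 0.626, 2.13 and 0.614 CPM in L5 to L8. The same split of L5 and L7 from L6 and L8 was seen. It had a log2 fold change of -1.59 ± 0.43 (SE), with the largest standard error of these 4 genes.

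The other 5 members overlapped between the day 0 groups. PLCD4, a phosphoinositide-cleaving enzyme that takes part in the acrosome reaction of mouse sperm, was 66.9 ± 14.1 CPM (SD, n = 4) in the high boars and 84.1 ± 9.38 CPM in the low boars, a log2 fold change of -0.40 ± 0.16 (SE). PLA2G7 had a log2 fold change of 0.25 ± 0.16, PNPLA8 of 0.25 ± 0.19 and PLA2G4A of 0.30 ± 0.26. These also moved with 1 boar, to 0.13 for PLA2G7 without L3, to 0.13 for PNPLA8 without L1 and to 0.051 for PLA2G4A without L6. For PLA2G2A it was 0.46 ± 0.58, and without L5, the Landrace boar with the highest PLA2G2A level, it was -0.084.

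At day 0, 2682 of 12979 genes, or 20.7%, were called, that is, had a Benjamini-Hochberg adjusted p under 0.05 in the quasi-likelihood test of edgeR. Of these 626 were higher and 2056, or 15.8% of the genes tested, were lower in the high boars. The study's text words the opposite, with most of its genes for this comparison higher in the high group. DESeq2 called 1458 higher and 2464 lower, the likelihood ratio test 994 and 2433, and the quasi-likelihood test with relative log expression scaling 838 and 2028. Among the members 4 of 9 were called, PLA2G6, PNPLA2, PNPLA6 and PNPLA7, each lower in the high boars. The median log2 fold change was -0.40 over the members and 0.035 over all genes tested, and the groups did not overlap in 31.4% of genes. Since this comparison was used to choose members, nothing is read from these counts. The calls depended on which boars were in the fit. No member and 1 gene were called without L3 or without L6, 3 members were called without L1 or without L8, and 5 members among 3764 genes without L5. In the 8 fits that each left out 1 boar, the log2 fold change of PNPLA7 was between -1.87 and -1.47. It was between -1.57 and -1.15 for PLA2G6, -1.93 and -1.35 for PNPLA2, and -1.58 and -1.19 for PNPLA6. These ranges are a description, since PNPLA7 was chosen by this comparison.

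Other measures moved with the day 0 groups. The share of alignments that were not unique was 5.83% to 7.2% in the high boars and 7.53% to 7.92% in the low boars, with no overlap. The summed level of 6 spermatocyte markers was 1395 to 2129 CPM in the high boars and 998 to 1311 CPM in the low boars, also with no overlap. L8 had the highest spermatocyte sum and was the deepest Landrace library, at 97059970 counts. The 5 peritubular and smooth muscle markers summed to 17.6 to 63 CPM in the high and 47.9 to 103 CPM in the low boars, and 2 of the 4 of these tested were called lower in the high boars. Leydig cell markers summed to 470 CPM in L8 and 4519 CPM in L6, on either side of the 1639 to 2090 CPM of the low boars. The sums of the Sertoli cell, spermatogonia, round spermatid, elongating spermatid, endothelial, macrophage and adipocyte markers overlapped between the groups, although 3 of the 7 elongating and 1 of the 6 round spermatid markers were called lower in the high boars. The part of these measures in the members' differences was not tested.

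The change in hyperactivity during storage gave a different order of members, led by PLA2G2A. PLA2G2A, PLA2G4A and PLA2G7 had higher mean levels in the boars with a high change, and the other 6 members had lower means. Only for PLA2G2A and PNPLA7 did the groups not overlap, a pattern held by 16.4% of all genes tested. No gene passed the adjusted threshold of edgeR's quasi-likelihood test, whereas the other tests run called some genes.

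PLA2G2A is the secreted group IIA phospholipase A2, a small calcium-dependent enzyme found in secretions and at sites of inflammation. Its level was 4.47, 2.84 and 3.73 CPM in the high boars L7, L13 and L15. In the low boars L2, L9, L10 and L12 it was 1.55, 1.39, 1.98 and 0.893 CPM. The lowest high boar was thus above the highest low boar. This was a log2 fold change, high over low, of 1.33 ± 0.31 (SE, n = 3 and 4). It was between 1.17 and 1.51 when each boar was left out in turn. PLA2G2A was named for this comparison, so this range is a description. The study's text gives the opposite direction, with PLA2G2A lower where hyperactivity was high after storage. The 6 Landrace boars that were only in the day 0 comparison ranged from 0.961 CPM in L4 to 7.28 CPM in L5.

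PLA2G7, the lipoprotein-associated phospholipase A2 that inactivates platelet-activating factor, was 39.9, 67.7 and 31.9 CPM in L7, L13 and L15 and 36.7, 29.6, 28 and 24.7 CPM in L2, L9, L10 and L12. L13 was far above every other boar of either breed. Its log2 fold change was 0.63 ± 0.25 (SE), and 0.27 without L13. In L13 the macrophage markers, 4 of 6 of which exceeded 1 CPM in a library, summed to 221 CPM, against 64.4 and 83.5 CPM in the other high boars and 64.3 to 98.4 CPM in the low boars. Its Sertoli cell markers summed to 481 CPM, against 185 to 247 CPM in the other 6 boars, and its elongating spermatid markers to 6245 CPM, the lowest of the Landrace boars. The elongating spermatid sum was also low in L15, at 7736 CPM. It was 11959 CPM in L7 and 10484 to 14396 CPM in the low boars. The part of these markers in the PLA2G7 level, or in the other members' differences for the change, was not tested.

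PLA2G4A, the cytosolic phospholipase A2 that releases arachidonic acid for prostaglandin and leukotriene synthesis, was 17.9, 26.4 and 18.5 CPM in L7, L13 and L15. In L2, L9, L10 and L12 it was 18.5, 8.98, 8.3 and 11.2 CPM. The groups overlapped through L2 alone. Its log2 fold change was 0.82 ± 0.29 (SE), and it was 1.14 without L2.

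PNPLA7 was 7.68, 5.61 and 11 CPM in L7, L13 and L15 and 17.9, 12.4, 13 and 16.4 CPM in L2, L9, L10 and L12. As at day 0, the high boars were below the low boars, and L2 and L7 contributed to both comparisons. For PNPLA7 the log2 fold change was -0.90 ± 0.26 (SE), and it was -0.77 with both shared boars left out. PLA2G6 had a log2 fold change of -0.96 ± 0.36, PNPLA2 of -0.98 ± 0.42, PNPLA6 of -0.55 ± 0.27, PLCD4 of -0.54 ± 0.23 and PNPLA8, a calcium-independent phospholipase A2 of mitochondria and peroxisomes, of -0.19 ± 0.20. Several of these moved when 1 boar was left out. Without L13 the value was -0.63 for PLA2G6 and -0.31 for PLCD4, without L12 it was -0.59 for PNPLA2, and without L15 it was -0.81 for PLCD4. For PNPLA8 it was -0.039 without L9, -0.04 without L13 and -0.31 without L7.

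**Figure D2:**
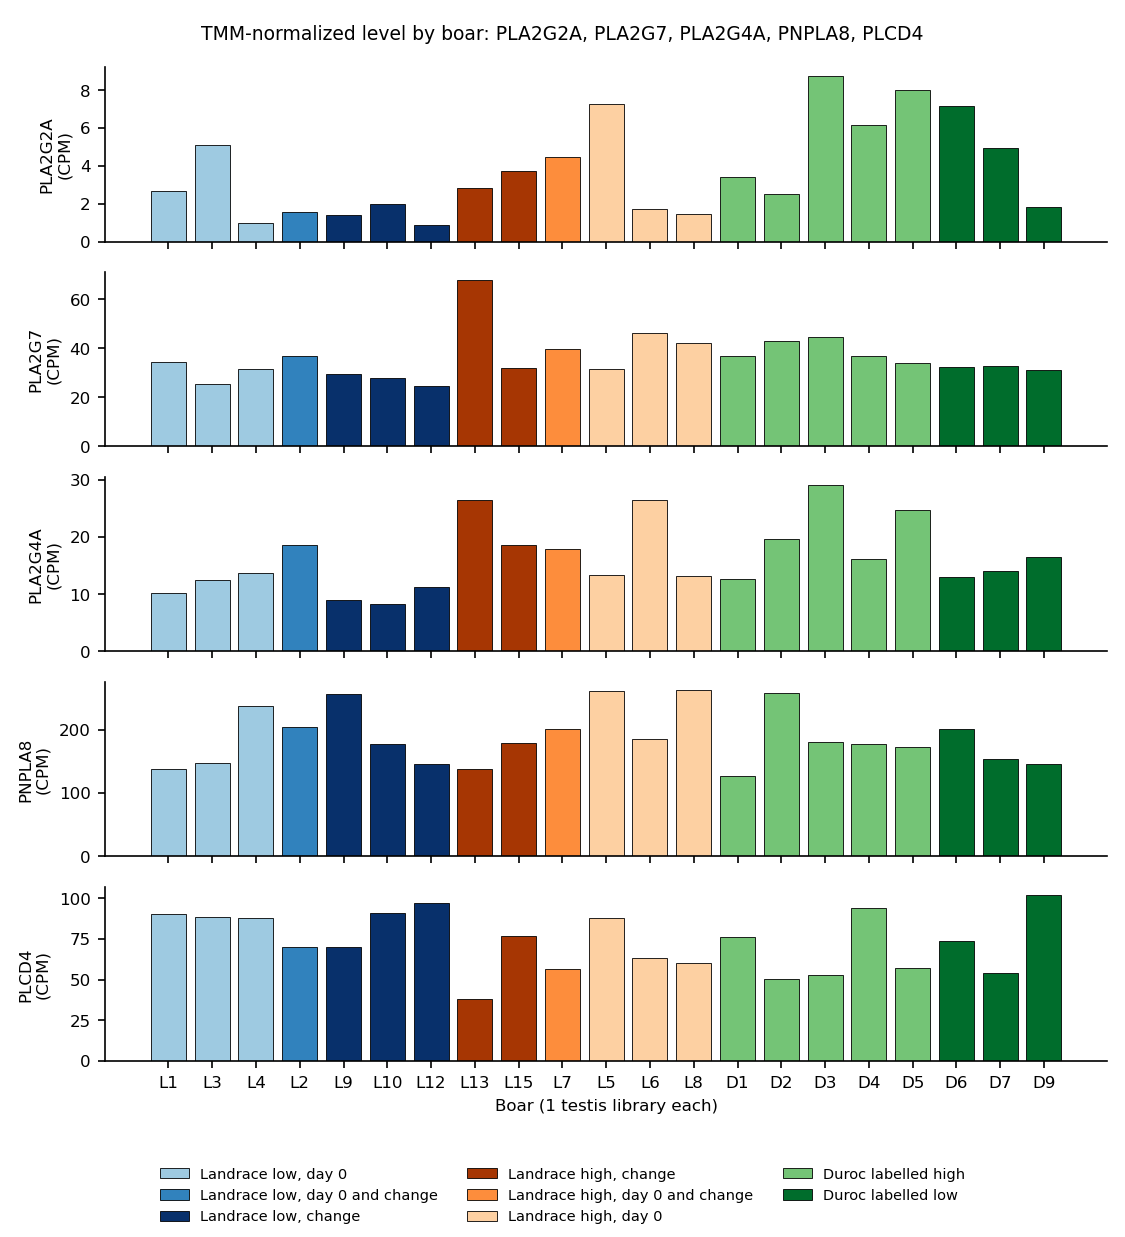
TMM-normalized level (CPM, linear axes from 0) of PLA2G2A, PLA2G7, PLA2G4A, PNPLA8 and PLCD4 in each of the 21 boars, with 1 bar per testis library coloured by group. PLA2G2A is between 2.84 and 4.47 CPM in the 3 Landrace boars with a high change and between 0.893 and 1.98 CPM in the 4 with a low change, and PLA2G7 is highest in L13.

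For the change, edgeR's quasi-likelihood test called 0 of 12824 genes, or 0%, and 2540 genes, or 19.8%, had an unadjusted p under 0.05. Among the members 0 were called and 7 of 9 had an unadjusted p under 0.05. The likelihood ratio test called 64 genes and DESeq2 called 116, with PLA2G2A as the 1 member in each. The groups did not overlap in 16.4% of genes and in 2 of 9 members. The median log2 fold change was -0.54 over the members and 0.0034 over all genes tested. PLA2G2A was named for this comparison, so nothing is read from these counts.

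The rule that names the members uses no breed difference, and no member was called between the breeds. The largest difference was in PLA2G2A, which was 5.34 ± 2.59 CPM (SD, n = 8) in Duroc and 2.77 ± 1.9 CPM (SD, n = 13) in Landrace boars. Among genes that act with the secreted phospholipases, PLA2R1, a receptor that binds secreted phospholipases A2, was called 5.01-fold higher in Duroc boars, with no overlap between the breeds. LPCAT2 and PLD5 were called lower in Duroc boars.

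The lowest, median and highest levels of PLA2G2A were 1.81, 5.55 and 8.76 CPM in Duroc boars and 0.893, 1.98 and 7.28 CPM in Landrace boars. The breeds overlapped widely, with D9 and D2 in the lower part of the Landrace range and L5 and L3 within the Duroc range. The log2 fold change, Duroc over Landrace, was 0.95 ± 0.36 (SE), with an adjusted p of 0.194 from edgeR's quasi-likelihood test. The two-sided exact permutation test over 203490 assignments gave p = 0.0195, unadjusted, 1 of 9 such tests on members. Over the alternatives that kept the 21 boars the adjusted p was between 0.116 and 0.199 (edgeR and DESeq2).

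For the other 8 members the log2 fold change was between -0.20 (PNPLA7) and 0.26 (PLA2G4A), with adjusted p from 0.821 to 0.998 (edgeR). The interval of 2 SE either side was narrowest for PNPLA8, from -0.39 to 0.14, and PLA2G7, from -0.27 to 0.33. It was widest for PNPLA2, from -0.89 to 0.67, and for PNPLA7 it was -0.82 to 0.43, so that a 1.5-fold difference between breeds lay within the intervals of both. In this comparison 378 of 13126 genes, or 2.88%, passed the adjusted threshold, and 1612, or 12.3%, had an unadjusted p under 0.05. Among the members 0 and 1 did so.

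**Figure D3:**
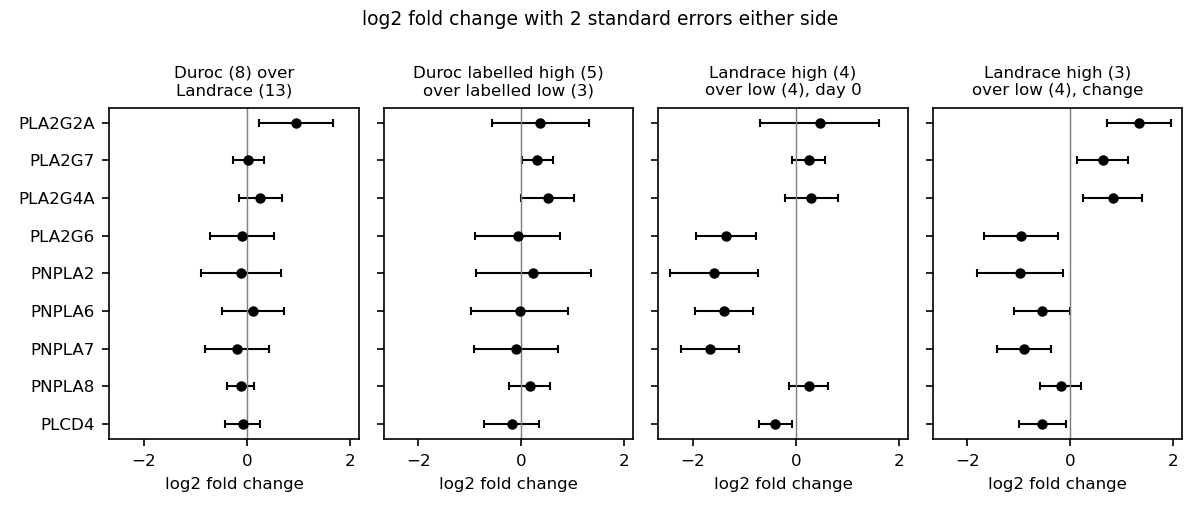
Fitted log2 fold change (points) with 2 standard errors either side (bars) of the 9 members in the 4 comparisons, with the number of boars in each group in the panel titles. PLA2G6, PNPLA2, PNPLA6 and PNPLA7 lie between -1.67 and -1.35 at day 0 and between -0.20 and 0.12 in the breed comparison, and PLA2G2A is at 1.33 in the change and 0.95 in the breed comparison.

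Of the 109 genes on 6 lists of related enzymes, 98 had a row and 69 passed the filter in the breed comparison. Of these 69, 3 were called (4.35%), 1 higher and 2 lower in Duroc boars. PLA2R1 (ENSSSCG00000015885) had a lowest, median and highest level of 11.7, 17 and 23.3 CPM in Duroc boars and 1.35, 2.7 and 9.25 CPM in Landrace boars. The 9.25 CPM was in L13, and the next Landrace boar, L5, had 4.62 CPM. For PLA2R1 the log2 fold change was 2.32 ± 0.26 (SE, adjusted p = 6.58e-06 from edgeR), and it stayed between 2.23 and 2.55 when each boar was left out in turn. PLA2R1 was 17.5 ± 4.11 CPM (SD, n = 5) in the Duroc boars labelled high and 15.8 ± 3.85 CPM (n = 3) in those labelled low.

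LPCAT2 (ENSSSCG00000002828) adds fatty acids back to lysophosphatidylcholine and also makes platelet-activating factor, the substrate of PLA2G7. Its lowest, median and highest levels were 8.26, 12.1 and 17.5 CPM in Duroc boars and 14.6, 26.1 and 33.1 CPM in Landrace boars. Only L13, at 14.6 CPM, reached into the Duroc range. For LPCAT2 the log2 fold change was -1.05 ± 0.15 (SE), at an edgeR adjusted p of 0.000103. PLD5 (ENSSSCG00000021132), a member of the phospholipase D family, had levels of 3.22, 5.25 and 9.57 CPM in Duroc and 5.44, 8.61 and 15.8 CPM in Landrace boars. Its log2 fold change was -0.88 ± 0.21 (SE), at an edgeR adjusted p of 0.0212. The summed marker levels of all 10 cell type lists overlapped between the breeds, with 1 of 5 spermatogonia and 1 of 6 round spermatid markers called lower in Duroc boars. The part of these markers in the breed differences was not tested.

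**Figure D4:**
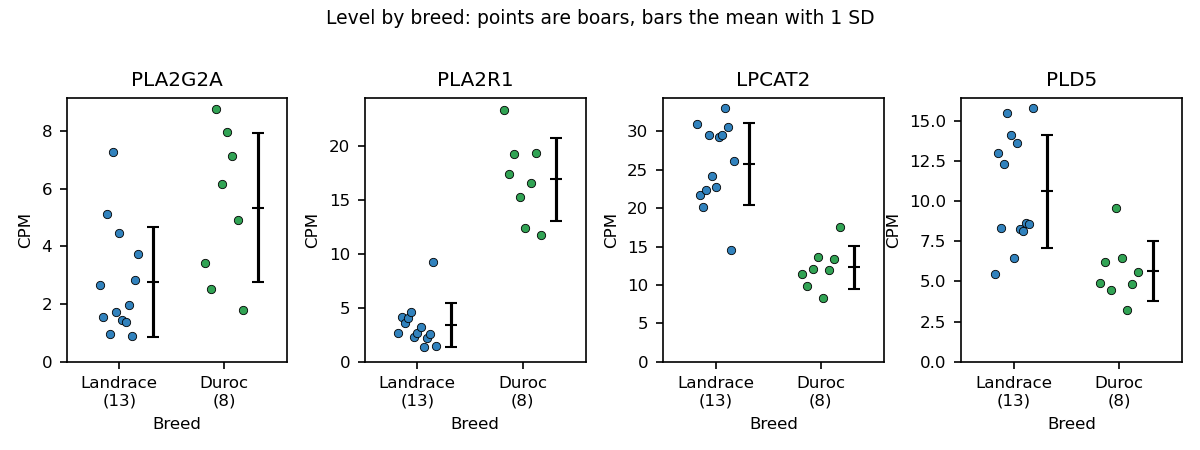
Level (CPM, linear axes from 0) of PLA2G2A, PLA2R1, LPCAT2 and PLD5 in 13 Landrace and 8 Duroc boars, with 1 point per boar and the mean with 1 SD beside the points. The Duroc boars are at 11.7 CPM or more for PLA2R1 and the Landrace boars at 9.25 CPM or less, whereas the breeds overlap in PLA2G2A.

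At day 0, 17 of 69 list genes were called, or 24.6%, each of the 17 lower in the high boars. They were 3 of 10 other phospholipase A2 and patatin genes (PLA2G4B, PLA2G4D and PLA2G4F), 3 of 12 phospholipase C genes (PLCB3, PLCD1 and PLCG1) and 2 of 8 phospholipase D and B genes (PLD2 and PLD6). A further 4 of 21 lysophospholipid and platelet-activating factor enzymes (ABHD16A, LPCAT4, ABHD4 and MBOAT7) were called, with 5 of 11 genes of neutral lipid lipolysis (DGAT2, LIPE, MGLL, PLIN3 and DAGLB) and 0 of 7 genes of eicosanoid synthesis. PLA2G4B, PLA2G4D and PLA2G4F lie near each other in the genome. The background of 20.7% applies to these counts too, and all genes called were mostly lower.

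LIPE and DGAT2, from the list of neutral lipid lipolysis, are examples chosen after their values were seen. LIPE, hormone-sensitive lipase, which cleaves the diglyceride that PNPLA2 makes, was 45.1, 20.2, 34 and 15.9 CPM in L5 to L8 and 56.4, 62.7, 68.9 and 62.9 CPM in L1 to L4. DGAT2, which makes triglyceride, was 20.9, 11.8, 21.7 and 10.4 CPM in L5 to L8 and 31.7, 39.6, 34 and 41.2 CPM in L1 to L4. Both had L6 and L8 as the lowest boars, as PLA2G6 and PNPLA2 did. The log2 fold changes were -1.19 ± 0.28 and -1.24 ± 0.25 (SE). In the same list ABHD5 (log2 fold change 0.45), LIPA (0.63), PLIN2 (0.25) and LPL (0.28) were higher in the high boars, and none was called. The other genes tested in that list were below 0. No list gene was called for the change (0 of 69) or between the Duroc labels (0 of 70).

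Between the Duroc boars labelled high and low, no member was called. Neither was any of the 13043 genes tested by edgeR's quasi-likelihood test (0%), with 158 genes, or 1.21%, at an unadjusted p under 0.05. The likelihood ratio test and DESeq2 also called 0. PLA2G7 was the 1 member whose groups did not overlap, a pattern held by 1.3% of genes. It was 36.7, 43.1, 44.7, 36.7 and 34.1 CPM in D1 to D5 and 32.6, 32.8 and 31.1 CPM in D6, D7 and D9, so the gap between the groups was narrow. The log2 fold change, labelled high over labelled low, was 0.31 ± 0.15 (SE), with an adjusted p of 1 from edgeR and an exact permutation p of 0.0357, the smallest that 5 boars against 3 allow in this two-sided test. This p was 1 of 9 on members and was not adjusted. For PNPLA7 the log2 fold change was -0.10 ± 0.41, with an interval of 2 SE from -0.91 to 0.71. The difference between this value and the day 0 value in Landrace boars was not tested.

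The members that were low together in Landrace boars also varied together among the 8 Duroc boars. PNPLA7 was 16.9, 4.84, 7.47, 12.4 and 9.61 CPM in D1 to D5 and 9.52, 7.83 and 16.2 CPM in D6, D7 and D9. PLA2G6 was 16.9, 5.72, 8.59, 21.1 and 18.3 CPM in D1 to D5 and 10.9, 14.2 and 20.1 CPM in D6, D7 and D9. D2 was the lowest boar and D3 the next in both genes, and likewise in PNPLA2 and PNPLA6.

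Pearson's r of log2 CPM over the 8 Duroc boars was between 0.84 and 0.96 for the 6 pairs among PLA2G6, PNPLA2, PNPLA6 and PNPLA7. The adjusted exact permutation p was between 0.0116 and 0.0454 over all 36 pairs of members. With library sizes scaled by relative log expression, the pairs of PNPLA7 with PLA2G6 and with PNPLA2 no longer passed (adjusted exact permutation p = 0.0515 each). The pair with the highest rank correlation was PNPLA6 and PNPLA7, with r = 0.93 and Spearman's rho = 0.95, and it was the 1 pair of 36 whose rho passed (adjusted exact permutation p = 0.0411). When D2 and D3, the boars farthest from the median, were left out, r for the 6 pairs was between 0.55 and 0.90, so part of the relation rested on these boars. In the 13 Landrace boars, given as a description, r for the same pairs was between 0.94 and 0.96.

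Of the 36 pairs, 8 passed for r, and the share of all gene pairs that would pass is not given here. The other two were PNPLA7 with PLCD4, at r = 0.84 and rho = 0.90 (adjusted exact permutation p = 0.0454 for r), and PNPLA6 with PNPLA8, at r = -0.83 and rho = -0.86 (adjusted exact permutation p = 0.0491 for r). Neither passed with relative log expression scaling (adjusted exact permutation p = 0.0515 and 0.06). Without D2 and D3 the latter was -0.69, and in Landrace boars it was -0.40. Without D1 and D2, the r of PNPLA7 with PLCD4 was 0.94. PLA2G2A had r between -0.34 and 0.35 with the other 8 members in Duroc boars and between -0.10 and 0.18 in Landrace boars. Without D2 and D9, however, its r in Duroc boars was 0.88 with PNPLA8, 0.75 with PLA2G4A and -0.70 with PNPLA7, so the low values rested on these boars. PLA2G7 and PLCD4 had r = -0.91 in Landrace and -0.54 in Duroc boars, where the adjusted exact permutation p was 0.289.

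**Figure D5:**
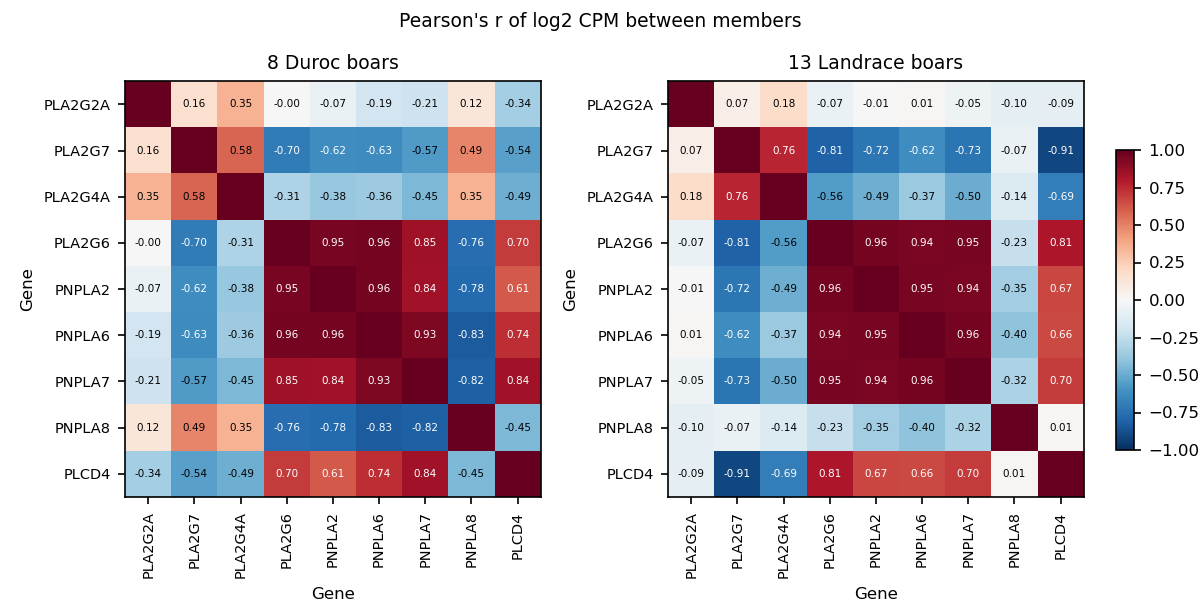
Pearson's r of log2 CPM between the 9 members over the 8 Duroc boars (left) and the 13 Landrace boars (right), on a colour scale from -1 to 1 with the value in each cell. PLA2G6, PNPLA2, PNPLA6 and PNPLA7 form a block with r of 0.84 or more in both breeds, and PLA2G2A has r between -0.34 and 0.35 with the other members.

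The joint variation was shared with many other genes. Over the 21 boars, with each gene centred on its breed mean, 553 of 11045 other genes, or 5.01%, had r of at least 0.9 with PNPLA7. For PLA2G6, PNPLA6 and PNPLA2 the shares were 7.6%, 6.26% and 6.23%. The 5 genes most like PNPLA7 were PCNX3 (r = 0.98), COL22A1, SETD1A, TRMT1 and SPTAN1 (r = 0.97 each), ahead of the members PNPLA6 (0.94), PLA2G6 (0.93) and PNPLA2 (0.91). No gene reached 0.9 with PLA2G2A, and the 5 most like it were SRD5A2 (r = 0.68), RGS4 (0.65), KCTD1 (0.64), DNAJC6 and TRPC7 (0.63 each). For PLA2G4A, PLA2G7, PNPLA8 and PLCD4, between 8 and 11 genes reached 0.9. Over the 8 Duroc boars alone, the shares at 0.9 were 5.17% for PNPLA7, 7.99% for PLA2G6, 9.27% for PNPLA6 and 7.51% for PNPLA2. They were 3.45% for PNPLA8, 1.03% for PLCD4, 0.217% for PLA2G4A and 0.181% for PLA2G7, and 3 genes reached 0.9 with PLA2G2A. Between 182 and 836 genes were at or below -0.9 with PLA2G6, PNPLA2, PNPLA6, PNPLA7, PNPLA8 and PLCD4. All points share library depth and composition.

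Library depth and the share of alignments that were not unique moved with this block of genes in Duroc boars as well. D3 and D2 were the deepest Duroc libraries, with 125576407 and 84446404 counts. Among 8 relations, chosen after the values were seen, Pearson's r of log2 CPM with the log2 of total counts was between -0.84 and -0.76 and Spearman's rho between -0.95 and -0.71 over the 4 genes. The adjusted exact permutation p of r was between 0.0257 and 0.0611, and that of rho between 0.00913 and 0.0768. With the share of alignments that were not unique, r was between 0.79 and 0.94 and rho between 0.67 and 0.86. The adjusted exact permutation p was between 0.00794 and 0.0257 for r and between 0.0286 and 0.0831 for rho, where PLA2G6 and PNPLA2 did not pass. Without the pair of boars farthest from the median, r was between -0.95 and -0.36 for total counts and between 0.51 and 0.83 for the share. In Landrace boars r was between -0.61 and -0.51 for total counts and between 0.87 and 0.92 for the share. The spermatocyte markers summed to 2001 CPM in D2, the highest Duroc value, and to 1577 CPM in D3, against 991 to 1585 CPM in the other Duroc boars. The part of depth, alignment and cell composition in the joint variation was not tested.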

How the data were processed

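Testis RNA of 21 boars was sequenced by the authors from stranded mRNA libraries as single reads. Per the labels the tools were Trimmomatic 0.36, HTSeq and edgeR 3.12.1, and the study's methods name STAR, Sscrofa11.1 and Ensembl gene models. The deposited values are raw counts per gene, 1 file per boar, without normalization. Rows that name no gene were left out of library sizes; reads outside any gene made up 21.5% to 30.2% of each library's total. No 2 libraries of a breed were duplicates (chi-square per degree of freedom at least 42.7 over 106 pairs).

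The members and lists were chosen with earlier results of these data known. Groups came from the deposited labels. A gene was tested if it reached 1 CPM in 8 or more libraries (breeds) or in 4 or more (within a breed). Counts were tested in R 4.3.3 with edgeR 4.0.16 (TMM, quasi-likelihood test, Benjamini-Hochberg adjustment, threshold 0.05), which differs from the likelihood ratio test of the study, run as an alternative with DESeq2 1.42.0. The fits were tested on simulated data. Standard errors were taken from the fitted fold change and its test statistic. Exact permutation tests were two-sided and run over all assignments of boars, and over all 40320 pairings for correlations. The named genes are the members, up to 2 list genes called between breeds in each direction per list, and the 5 genes most like PNPLA7 and PLA2G2A. The 17 list genes called at day 0 are named too. Of these, LIPE and DGAT2 were chosen after their values were seen. Where nothing else is said, n is boars. Each boar is a separate animal. Correction for GC content and comparison per transcript length were not made, and variants were not analysed here.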

Additional observations from a re-analysis of the deposited data

Results flagged for a closer look

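Within groups of 4 to 10 boars, 45 sets of member levels were examined for a boar far from the rest, and chance marks about 1 in 20 of such sets, or 2.25 of 45. Of these, 1 stood out. PLCD4 in L2 was 70.1 CPM, whereas the other 3 Landrace boars with low hyperactivity at day 0 were between 88 and 90.1 CPM, a gap of 0.895 of the group's range. L2 is also in the low group for the change, where PLCD4 was between 70 and 97.2 CPM and L2 did not stand apart.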

How the results depend on the processing

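No paired analysis was possible because the boars are separate animals and the labels give the groups compared no shared replicate numbers. Alternatives were DESeq2, edgeR's likelihood ratio test, library sizes by relative log expression, other filters, leaving out L2 and L7, a label covariate, and leaving out each boar in turn. Between breeds, 230 genes were called with the 8 day 0 Landrace boars and the label as covariate. There the log2 fold change turned to 0.13 for PLA2G6, 0.19 for PNPLA2 and 0.11 for PNPLA7. This fit left out the other Landrace boars, so the turn cannot be assigned to the covariate. By boar name, most Duroc labels also differ from the study's table. For the change, the likelihood ratio test called 64 genes, DESeq2 116 and the fit without a filter 1, with 1 member called by each of the first pair. With relative log expression, 4 pairs of members passed in Duroc boars. Leaving out 1 boar gave 268 (without D4) to 491 genes (without L13) between breeds, 0 to 2 between Duroc labels (2 without D9), 0 to 2 for the change, and 1 (without L3 or L6) to 3764 genes (without L5) with 0 to 5 members at day 0, where 966 were called without L1, 1228 without L8 and 1481 without L4. Leaving out 1 boar turned signs of members whose log2 fold changes were between -0.19 and 0.23, and of PLA2G2A at day 0 (without L5). Between breeds the ranges were -0.19 to 0.025 for PLA2G6, -0.0056 to 0.13 for PLA2G7, -0.26 to 0.046 for PNPLA2 and -0.017 to 0.24 for PNPLA6. Between Duroc labels they were -0.28 to 0.25 for PLA2G6, -0.05 to 0.56 for PNPLA2, -0.29 to 0.48 for PNPLA6, -0.41 to 0.34 for PNPLA7 and -0.4 to 0.13 for PLCD4. The causes were not tested. PLA2R1, LPCAT2 and PLD5 were called between breeds in all of the alternatives run. Depth limits PNPLA2 and PLA2G2A most.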
